A study of Mus musculus with 4 samples.

Results

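Fgfr1, Gfra2, Sept3, Lmo1, Fcrls, 9530059O14Rik and Slc27a3 are 7 of the 27998 genes measured by CITE-seq in CD11b+ mouse splenocytes. They were picked on their measured values as higher in P-IV cells than in the other 3 P subsets of GM-CSF-treated mice, so their levels in those cells are given as a description. The P subsets are gates on antibody tags among CD115hi cells: P-I is Ly6C high, and P-II, P-III and P-IV are Ly6C low and CD11c+, with MHC II low in P-II, MHC II high and CD301b- in P-III, and MHC II high and CD301b+ in P-IV. One library of each kind (RNA and tags) came from C57BL/6 mice in the steady state and one from mice injected with 10 µg of GM-CSF once a day, 3 times, whose cells were taken 24 hours after the last dose, and the study's methods give an age of 8 to 12 weeks for its mice. The labels of these libraries name no other allele or agent. With 1 library per condition there was no replicate check, so no p-value is given, the condition and the library cannot be told apart, and every interval below is an exact 95% interval for counting error only.

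The 7 genes have unlike roles, and most are better known outside the myeloid lineage. Monocytes that enter an inflamed or cytokine-exposed tissue can take on features of dendritic cells, such as MHC II, CD11c and the galactose-type lectin CD301b, and GM-CSF is a long-used cytokine for making such cells in culture. Fgfr1 is a receptor tyrosine kinase for fibroblast growth factors, Gfra2 is the co-receptor that binds neurturin and passes the signal to the kinase Ret, and Fcrls is a scavenger-type Fc receptor-like protein known in mouse microglia. Sept3 is a septin, a GTP-binding filament protein best known in neurons, and Lmo1 is a LIM-only cofactor that bridges transcription factors. Slc27a3 is an acyl-CoA synthetase of the fatty acid transport protein family, and 9530059O14Rik is a long intergenic non-coding RNA of unknown role.

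The genes lie at 7 separate loci on 6 chromosomes (GENCODE annotation of GRCm38). Fgfr1 spans chr8:25513654-25575718 on the plus strand, Gfra2 chr14:70890120-70979838 on the plus strand and Sept3 chr15:82274893-82294574 on the plus strand. Lmo1 spans chr7:109138572-109175207 on the minus strand, and 9530059O14Rik spans chr9:122572499-122679596 on the plus strand. Fcrls at chr3:87250758-87263738 and Slc27a3 at chr3:90385239-90389938 share a chromosome and the minus strand but not a neighbourhood. An annotated antisense gene overlaps Fgfr1 (Gm16159), Lmo1 (Gm44781) and 9530059O14Rik (Gm47134). Of the 14 nearest protein-coding neighbours, Dok2 (an adaptor protein of tyrosine kinases) lay 111625 bases before Gfra2 and had 243 counts per 1000000 UMIs (CPM) in CD115- IV cells (defined further on) against 109 in CD115- III cells, while Letm2, 2772 bases after Fgfr1, had 2.37 against 4.51.

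The RefSeq promoter table of GRCm38.p6 (250 bases before to 50 after a start) held Lmo1, Fcrls, 9530059O14Rik and Slc27a3. The 80 bases before the start are shown for 3 of them, with every CG in capitals, because these promoters are rich in CG and the Fcrls promoter is not. No common sequence was sought. The stretch of 9530059O14Rik ends inside the annotated gene, which starts at 122572499. The 300-base window held 29 CG at 66.3% G and C for the first Lmo1 start, 38 CG at 75.7% for 9530059O14Rik and 20 CG at 64.3% for Slc27a3. The Fcrls window held 6 CG at 48.0%, against medians of 7 CG and 52.7% over 32851 promoters, whose upper quartiles were 20 CG and 61.7%.
Lmo1, chr7:109175208-109175287, minus strand: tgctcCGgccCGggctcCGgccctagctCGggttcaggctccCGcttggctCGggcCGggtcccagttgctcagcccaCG
9530059O14Rik, chr9:122572421-122572500, plus strand: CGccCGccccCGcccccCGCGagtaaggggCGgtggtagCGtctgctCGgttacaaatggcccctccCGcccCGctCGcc
Slc27a3, chr3:90389939-90390018, minus strand: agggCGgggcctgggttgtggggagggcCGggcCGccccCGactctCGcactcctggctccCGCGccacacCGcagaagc
On both strands of these windows the letters TTCNNNGAA (STAT, in 8.30% of all promoters) and GAGGAAGT (PU.1, 3.20%) and the IRF motif (3.44%) were not found. TGANTCA (AP-1, 7.81% of all promoters) matched once, 240 bases before the first Lmo1 start. A match or its lack is a description of these letters in this window.

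Levels are counts per 1000000 (CPM), the summed UMIs of a gene per 1000000 UMIs of a group of cells. The steady-state library held 4827 cells and 22358903 UMIs and the GM-conditioned library 6804 cells and 35007567 UMIs, of which 2135 and 3940 cells belonged to the monocyte, macrophage and DC clusters (the MoMacDC bundle). The libraries shared 8 cell barcodes. The P-IV gate held 313 cells with a median of 6883 UMIs, P-III 126 cells with 5866, P-I 187 cells with 7232, and P-II only 8 cells with 2594. P-IV cells carried median tag counts of 230 for CD301b, 511 for MHC II and 115 for CD115, and had Itgam (CD11b) at 127 CPM. B cell markers summed to 2.22 CPM and T cell markers to 3.11 CPM in P-IV, with 4 of 6 and 3 of 5 markers at 0. The 10 neutrophil markers summed to 247 CPM there, against 274 in P-III and 3890 in P-I. Red pulp macrophage markers summed to 267 CPM, against 25044 in the cells deposited as macrophages. Erythroid markers summed to 842 CPM in P-IV and 2.24 in the CD115- counterpart of P-IV. Other lists moved with the subsets: cDC2 markers summed to 201, 365 and 803 CPM in P-I, P-III and P-IV, NK cell markers to 17.2, 20.3 and 67.2 (5 of 8 at 0 in P-IV), and classical monocyte markers to 6338, 4021 and 1607. Cd209a, which is in the cDC2 list and which the paper also names among the genes of P-IV, gave 32.3, 71.7 and 383 CPM of the cDC2 sums. The part of these other cell types in the results was not tested.

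Among the CD115hi cells of the GM-conditioned library, all 7 genes had a P-IV level at least 2-fold that of any other P subset, the contrast they were picked from. Of the 5415 genes for which P-IV held 50 UMIs or more, 0.572% (31) met the same criterion. P-II held no UMI of any of the 7 among 27797 UMIs, which allows up to 108 CPM, so P-II bounds the comparison only for Fgfr1. The contrasts with P-I and P-III therefore carry the description.

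For the 2 growth factor receptor chains the P-IV level was several times that of P-III. Fgfr1 was at 18.6 CPM in P-I (12.2 to 27.3), 63.6 in P-III (46.7 to 84.5) and 245 in P-IV (225 to 266). Gfra2 was at 2.87 CPM in P-I (0.781 to 7.34), 10.8 in P-III (4.67 to 21.3) and 76.9 in P-IV (65.9 to 89.3). Both were lowest in P-I and intermediate in P-III, and the ratio of P-III to P-I was 3.41 (2.07 to 5.73) for Fgfr1 and 3.77 (1.01 to 17.1) for Gfra2. The Gfra2 value of P-III rested on 8 UMIs in 6 of 126 cells. P-IV exceeded P-III by 3.86-fold (2.86 to 5.31) for Fgfr1 and by 7.11-fold (3.53 to 16.7) for Gfra2.

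Fcrls and Slc27a3 also had a higher summed level in P-III than in P-I, on few cells. Fcrls was at 2.87 CPM in P-I (0.781 to 7.34), 18.9 in P-III (10.3 to 31.8) and 64.5 in P-IV (54.4 to 75.9). Slc27a3 was at 9.32 CPM in P-I (4.96 to 15.9), 27.0 in P-III (16.5 to 41.8) and 74.7 in P-IV (63.9 to 86.9). The P-III to P-I ratio was 6.60 (2.07 to 27.5) for Fcrls and 2.90 (1.37 to 6.35) for Slc27a3, both intervals above 1. These intervals count each UMI separately, and Fcrls in P-III rested on 14 UMIs in 6 of 126 cells, with up to 5 in 1 cell. The share of cells with a UMI was 4.76% (1.77 to 10.1) in P-III and 2.14% (0.586 to 5.39) in P-I for Fcrls. For Slc27a3 it was 11.9% (6.82 to 18.9) and 6.42% (3.36 to 10.9), so both pairs of intervals overlapped.

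Sept3, Lmo1 and 9530059O14Rik showed no separation of P-III from P-I beyond counting error. Sept3 was at 1.43 CPM in P-I (2 UMIs), 5.41 in P-III (4 UMIs) and 64.5 in P-IV (54.4 to 75.9). Lmo1 was at 24.4 CPM in P-I (16.9 to 34.1), 32.5 in P-III (20.8 to 48.3) and 105 in P-IV (92.4 to 120). The non-coding RNA 9530059O14Rik was at 5.02 CPM in P-I (2.02 to 10.3), 10.8 in P-III (4.67 to 21.3) and 65.8 in P-IV (55.6 to 77.3). Lmo1 thus already had a level in P-I near that of P-III, with a ratio of 1.33 (0.755 to 2.31), where Sept3 was close to its detection limit. Fgfr1 had a UMI in 216 of 313 P-IV cells (69.0%), Lmo1 in 144 (46.0%), Gfra2 in 108 (34.5%), Slc27a3 in 105 (33.5%), 9530059O14Rik in 101 (32.3%), Sept3 in 71 (22.7%) and Fcrls in 68 (21.7%). In neutrophils of the same library, which had a median of 4404 UMIs, the share was 0.336% for Fgfr1 and 0.112% for Sept3 and for Fcrls, but 23.2% for Lmo1.

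The cells outside the CD115hi gate were not used to pick the genes. The deposited subset column gives these cells a single label, so they were split here by the tag limits seen in the deposited subsets of the same library: 958 CD115- cells fell in class I, 90 in class II, 847 in class III, 1073 in class IV and 288 in none of them. Class IV had median tag counts of 36 for CD115 and 164 for CD301b, so it lay within the P-IV limits for every tag but CD115. The makeup of class III differed from that of P-III: 346 of its 847 cells (40.9%) were deposited as progenitor DCs, against 0 of 126 in P-III and 14 of 1073 (1.30%) in class IV. Ratios that rest on class III are therefore also given with progenitor DCs left out of the CD115- classes, a setting added after the data were seen. In class IV, 5 of the 7 genes were at least 2-fold above each of classes I, II and III, against 1.01% (85 of 8376) of all genes with at least 50 UMIs. The 2 exceptions were Sept3, at 1.82 times class III (1.5 to 2.21), and 9530059O14Rik, at 1.60 times (1.37 to 1.87). Of all genes that met the criterion in P-IV, 58.1% (18) also met it in class IV. The 7 genes were picked as high in P-IV, so that share is the nearer comparison. Over the 7 genes the median ratio to the highest other class was 2.51, and over all genes tested it was 0.830.

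The levels of Fgfr1 in classes I, III and IV came out close to those of the CD115hi subsets, but outside progenitor DCs class III was at 92.7 CPM, 1.46 times P-III (1.07 to 2.03). Fgfr1 was at 21.8 CPM in class I (18.6 to 25.3), 28.1 in class II (12.1 to 55.3), 61.2 in class III (54.9 to 68.1) and 239 in class IV (228 to 250). The ratio of P-IV to class IV was 1.03 (0.931 to 1.13), so this receptor had like levels in cells that met the CD115 gate and cells that did not. Gfra2 was at 5.86 CPM in class I, 7.02 in class II, 27.1 in class III (22.9 to 31.8) and 68.1 in class IV (62.3 to 74.2). Its level in class III exceeded that of P-III by 2.50-fold (1.24 to 5.91), and by 1.91-fold (0.910 to 4.62) without progenitor DCs. Class IV exceeded class III without progenitor DCs by 2.61-fold (2.30 to 2.98) for Fgfr1, against 3.90-fold with them, and by 3.33-fold (2.55 to 4.41) for Gfra2.

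Lmo1 was at 22.8 CPM in class I (19.5 to 26.4), 7.02 in class II (2 UMIs), 26.7 in class III (22.6 to 31.4) and 84 in class IV (77.6 to 90.8). Without progenitor DCs in any class, its class III level was 1.96 times that of class I (1.55 to 2.47). Fcrls, at 3.78 CPM in class I (2.53 to 5.42), was at 17.5 in class II (5 UMIs), 2.89 in class III (1.65 to 4.69) and 41.9 in class IV (37.5 to 46.8). Slc27a3 was at 9.64 CPM in class I (7.57 to 12.1), 3.51 in class II (1 UMI), 9.39 in class III (7.01 to 12.3) and 61.2 in class IV (55.8 to 67.0). Class III to class I ratios were 0.765 (0.388 to 1.46) for Fcrls and 0.974 (0.670 to 1.41) for Slc27a3, and without progenitor DCs 1.4 (0.709 to 2.66) and 1.78 (1.22 to 2.57). Class IV exceeded class III by 14.5-fold (8.80 to 25.7) for Fcrls and by 6.52-fold (4.89 to 8.86) for Slc27a3, and without progenitor DCs by 7.92-fold (4.80 to 14) and 3.56-fold (2.67 to 4.83). Fcrls was also the gene with the greatest ratio of P-IV to class IV, 1.54 (1.25 to 1.88), while that ratio was between 0.923 and 1.29 for the other 6.

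Sept3 and 9530059O14Rik, like Gfra2, had a higher level in CD115- class III than in P-III. Sept3 was at 5.47 CPM in class I (3.94 to 7.39), without a UMI in class II, at 27.4 in class III (23.3 to 32.2) and at 49.9 in class IV (45 to 55.1). 9530059O14Rik was at 9.64 CPM in class I (7.57 to 12.1), 10.5 in class II (3 UMIs), 44.6 in class III (39.2 to 50.5) and 71.4 in class IV (65.5 to 77.6). Class III exceeded P-III by 5.07-fold (1.94 to 18.9) for Sept3 and by 4.12-fold (2.06 to 9.66) for 9530059O14Rik, and without progenitor DCs by 2.88-fold (1.05 to 11) and 2.60-fold (1.26 to 6.21). In the progenitor DCs of class III, Sept3 was at 41.0 CPM, 9530059O14Rik at 63.5 and Gfra2 at 34.4, while Fcrls and Slc27a3 had no UMI and Lmo1 was at 5.42. Outside the progenitor DCs of class III, Sept3 was at 15.6 CPM, 9530059O14Rik at 28.1, Gfra2 at 20.6, Lmo1 at 45.4, Fcrls at 5.42 and Slc27a3 at 17.6. With progenitor DCs left out, 6 of the 7 genes met the 2-fold criterion in class IV, against 0.674% (56 of 8313) of all genes: Sept3 at 3.19-fold and 9530059O14Rik at 2.53-fold now did, and Lmo1 at 1.87-fold no longer did.

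**Figure D1:**
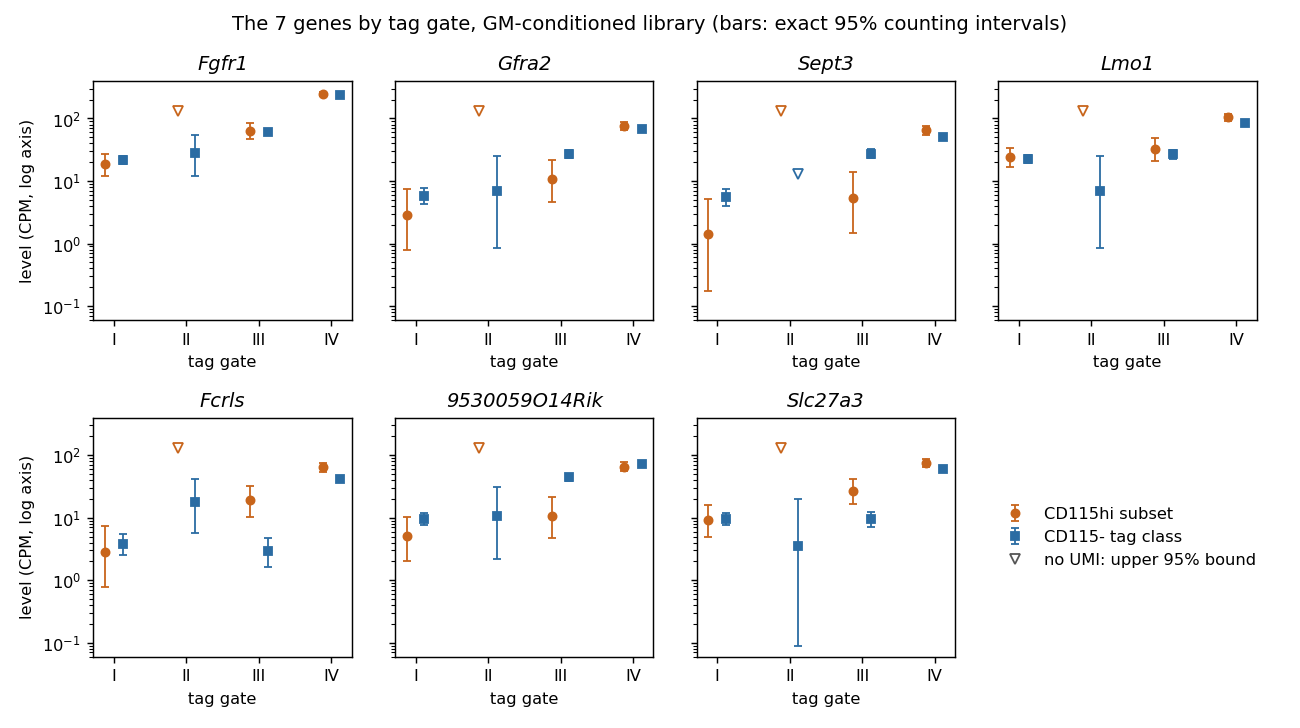
Level (CPM, log axis) of each of the 7 genes in the CD115hi subsets (circles) and the CD115- tag classes (squares) of the GM-conditioned library, with exact 95% counting intervals; open triangles mark the upper bound where no UMI was found. Apart from the 8-cell P-II, which had no UMI and only bounds the level, all 7 genes were highest at IV in both series, from 64.5 CPM for Sept3 and Fcrls to 245 CPM for Fgfr1 in P-IV, and Sept3 and 9530059O14Rik were higher in CD115- class III (27.4 and 44.6 CPM) than in P-III (5.41 and 10.8 CPM).

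The gate at 21 CD301b tag counts cuts a continuous scale, so CD115- cells of classes III and IV were also pooled and split into 8 ranges of CD301b tag. Mgl2, which encodes CD301b, went from 7.68 CPM at 0 to 4 tag counts to 747 at 400 or more. Fcrls went from 2.88 CPM (0.594 to 8.41) at 0 to 4 and 5.53 (2.65 to 10.2) at 10 to 20 to 23.0 (15.5 to 32.9) at 21 to 49 and 65.2 (54 to 78) at 400 or more. Slc27a3 went from 5.76 CPM (2.11 to 12.5) to 92.5 (79.1 to 108), and Lmo1 from 18.2 (11 to 28.5) to 106 (91.8 to 122). All 3 had their highest level in the cells with the most tag, above that of cells at 21 to 49 beyond counting error. Progenitor DCs made up 57.8% of the cells at 0 to 4. In the progenitor DCs of class III, Fcrls and Slc27a3 had no UMI and Lmo1 was at 5.42 CPM, so the low ends of these 3 genes include such cells.

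Fgfr1 reached most of its level early. It was at 59.5 CPM (45.6 to 76.3) at 0 to 4 tag counts, 88.5 (75.3 to 103) at 10 to 20, 182 (159 to 206) at 21 to 49 and 271 both at 200 to 399 and at 400 or more. Sept3 had its lowest level in the middle of the scale, with 35.5 CPM (25 to 48.9) at 0 to 4, 19.9 (13.9 to 27.6) at 10 to 20, 27.8 (19.1 to 39.0) at 50 to 99 and 67.9 (56.5 to 80.9) at 400 or more. Gfra2 stayed between 22.7 and 43.8 CPM up to 99 tag counts and reached 95.8 (82.1 to 111) at 400 or more, and 9530059O14Rik stayed between 40.4 and 62.9 CPM up to 99 and between 77.6 and 86.7 above. The share of progenitor DCs ran from 57.8% at 0 to 4 tag counts to 0.417% at 400 or more, and median UMIs per cell from 6042 to 7319. Fgfr1 was at 25.2 CPM in the progenitor DCs of class III and at 92.7 in its other cells. Without progenitor DCs, Sept3 was at 18.1 CPM (7.29 to 37.3) at 0 to 4, 12.5 (7.14 to 20.3) at 10 to 20 and 68.5 (57.0 to 81.7) at 400 or more, and 9530059O14Rik at 10.4 (2.82 to 26.5), 32.0 (23.0 to 43.4) and 79.0 (66.6 to 93.1).

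Within bundle clusters 0 and 3, which held most of class IV, the genes differed more plainly from each other. Fgfr1 was at 201 CPM (157 to 254) in the 57 cells with 5 to 9 CD301b tag counts and at 315 (286 to 348) in the 181 cells with 400 or more. Fcrls in the same cells was at 2.83 CPM (1 UMI) and 60.01 (47.4 to 74.9), and Slc27a3 at 25.5 (11.7 to 48.4) and 105 (87.8 to 124). Of the 57 cells, 19 were of cluster 0 and 38 of cluster 3, and of the 181 cells, 112 and 69. The part of this change in makeup in the differences was not tested. Over the 3 ranges below the CD301b gate, cells of these clusters had 193 to 244 CPM of Fgfr1 and at most 10 CPM of Fcrls; over the 5 ranges above it they had 267 to 315 and 32.3 CPM or more.

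**Figure D2:**
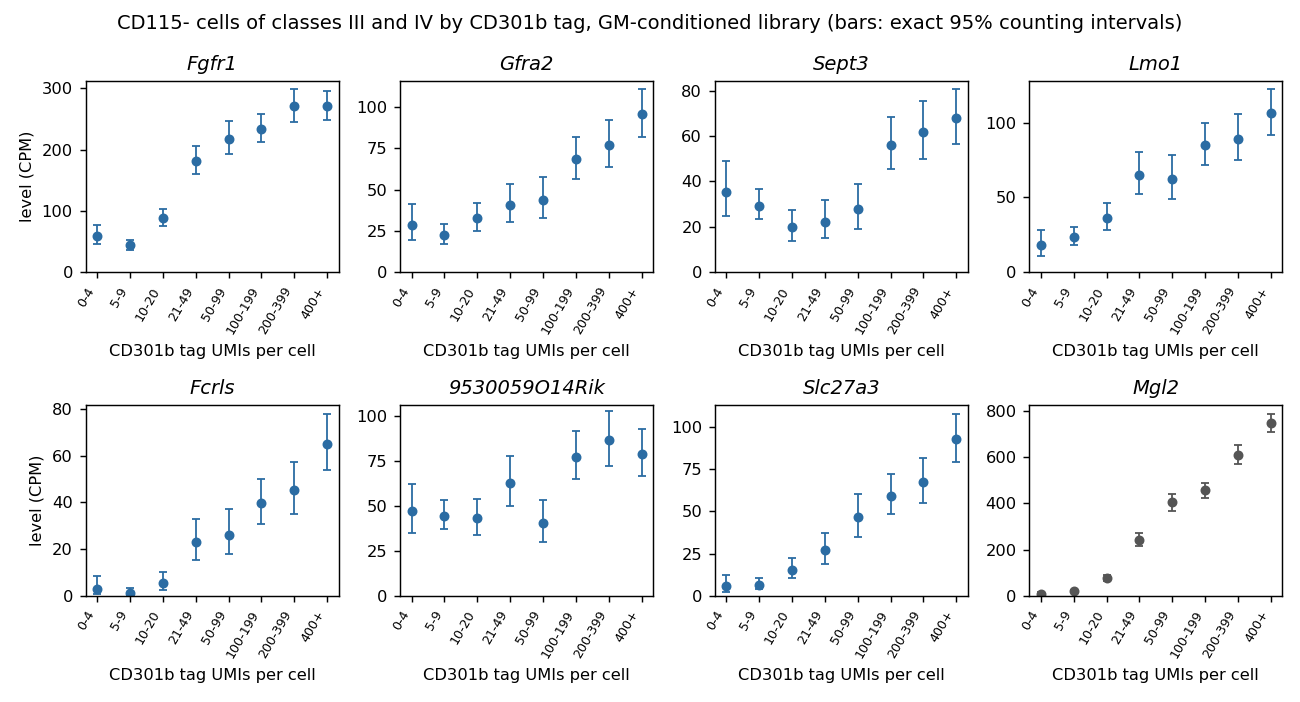
Level (CPM, linear axis from 0, exact 95% counting intervals) of the 7 genes and Mgl2 in CD115- cells of classes III and IV of the GM-conditioned library, by CD301b tag count per cell. Fcrls, Slc27a3 and Lmo1 were at 2.88, 5.76 and 18.2 CPM in the lowest range and 65.2, 92.5 and 106 CPM in the highest, while Sept3 was at 35.5 CPM in the lowest range and 19.9 CPM at 10 to 20 tag counts. Progenitor DCs were 57.8% of the cells in the lowest range and 0.417% in the highest.

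Within class IV, Fcrls differed most across ranges of the CD115 tag. From 0 to 9 up to 60 to 83 CD115 tag counts, Fcrls was at 12.6 CPM (5.43 to 24.8), 31.7, 27.1, 57.1 and 62.8 (51.4 to 76.0). Fgfr1 went from 203 CPM (169 to 241) to 262 (238 to 288), and 9530059O14Rik from 83.3 (62.4 to 109) to 72.4 (60.1 to 86.5). The share of cluster 0 cells went from 16.7% to 50.7% over the same ranges. Within cluster 0 alone Fcrls was at 33.6 CPM (9.15 to 86.0, 16 cells), 80.3, 55.3, 79.2 and 86.8 (67.8 to 110, 114 cells), whose intervals overlapped. Among the CD115- cells with CD115 tags at or below their median of 29, Fgfr1, Lmo1 and Slc27a3 met the 2-fold criterion in class IV (3 of the 7, against 1.12% of all genes), Gfra2 and Fcrls reached 1.80-fold, and Sept3 and 9530059O14Rik 1.41-fold or less.

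The bundle clusters deposited by the authors resolved the genes further. These clusters were built from the same expression values, so the differences between them are descriptions. Clusters 0 and 3 were the main GM-conditioned clusters of class IV, with 393 and 357 of its 1073 cells, and cluster 0 held 167 of the 313 P-IV cells against 15 in cluster 3. Fgfr1 was at 294 CPM in cluster 0 and 272 in cluster 3, a ratio of 1.08 (0.994 to 1.18), and Sept3 at 55.9 and 59.2, a ratio of 0.945 (0.783 to 1.14). Fcrls was at 74.3 CPM in cluster 0 and 7.07 in cluster 3, a ratio of 10.5 (6.95 to 16.6). Slc27a3 differed by 2.23-fold (1.84 to 2.72) and Gfra2 by 1.83-fold (1.52 to 2.21), both higher in cluster 0. The clusters thus had like levels of Fgfr1 and Sept3 and unlike levels of Fcrls. Among class IV cells alone the cluster 0 to cluster 3 ratio was 9.37 (5.85 to 15.9) for Fcrls and 1.0 (0.906 to 1.11) for Fgfr1, while Mgl2 was at 573 and 607 CPM.

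Clusters 9 and 12, most of whose cells were deposited as progenitor DCs, had Gfra2, Sept3 and 9530059O14Rik with little of the rest. Cluster 9 of the GM-conditioned library (236 cells) had 9530059O14Rik at 76.7 CPM, Sept3 at 53.1 and Gfra2 at 29.6, beside 75.4, 59.2 and 47.7 in cluster 3, but Fgfr1 at 34.3, Lmo1 at 6.05, Slc27a3 at 2.69 and no UMI of Fcrls. Cluster 12 (152 cells) had 9530059O14Rik at 46.8 CPM, Gfra2 at 42.9 and Sept3 at 33.0, with no UMI of Fcrls or Slc27a3. Cluster 14, also mostly progenitor DCs, had 9530059O14Rik at 66.6 CPM (42.2 to 99.9) in its 35 steady-state cells, with 1 UMI each of Fgfr1 and Lmo1 and none of the other genes. Of those cells, 26 lay in CD115- class I, which is Ly6C high, and 6 in class III. The paper also lists S100a8 and S100a9, which are in the neutrophil list used here, among the genes cluster 14 shares with other clusters. Clusters 2, 5 and 6, in which most steady-state P-I cells lay, had Lmo1 at 17.1, 21.8 and 6.95 CPM and the other 6 genes at 7.56 CPM or less. In cluster 4, Lmo1 was the sole one of the genes with a UMI, 5 in the steady state and 1 after GM-CSF.

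Outside the bundle, 2 of the genes had a place of their own. Gfra2 was at 560 CPM (421 to 731) in the 25 steady-state cells deposited as macrophages, with 54 UMIs in 16 cells, and at 339 CPM (194 to 550) in the 22 GM-conditioned ones. The other 6 genes summed to 1 UMI in the steady-state macrophages. Lmo1 was at 33.9 CPM (23.9 to 46.7) in steady-state neutrophils and 65.6 (58.7 to 73.2) in GM-conditioned ones, but at 2.90 (1.17 to 5.98) in the GM-conditioned granulocytes, the cluster with a median of 1229 UMIs per cell. 9530059O14Rik was at 98.5 CPM (49.2 to 176) in 20 GM-conditioned activated DCs, on 11 UMIs. B cells and T cells held few UMIs of any of the genes, up to 4.57 CPM in the groups with at least 100000 UMIs.

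**Figure D3:**
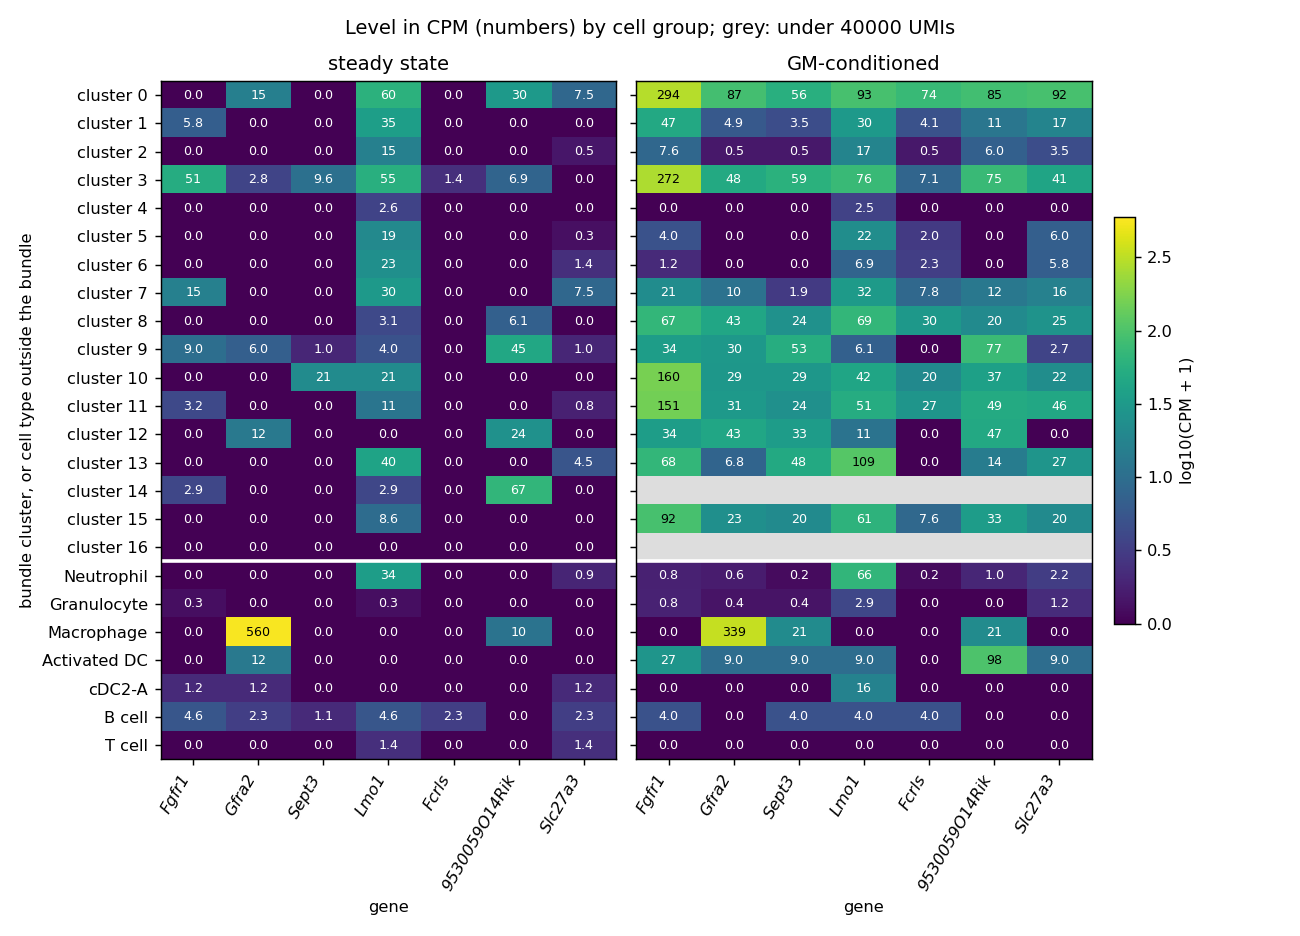
Level (CPM, printed in each cell; colour is log10 of CPM + 1) of the 7 genes by bundle cluster and by cell type outside the bundle, in the steady-state and the GM-conditioned library; grey marks groups with few UMIs. In the GM-conditioned library Fcrls was at 74.3 CPM in cluster 0 and 7.07 CPM in cluster 3 beside Fgfr1 at 294 and 272 CPM, and Gfra2 was at 560 CPM in steady-state macrophages.

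Between the conditions, all 7 genes were at least 2-fold higher in the GM-conditioned than in the steady-state bundle, as were 8.66% (941 of 10860) of all genes with at least 50 UMIs over both. A gene can reach that number through 1 library alone, and the 7 genes were picked in cells of the GM-conditioned bundle. Fcrls went from 1 UMI among 14952907 to 549 among 27088646, or 0.0669 to 20.3 CPM. Fgfr1 was at 3.81 CPM in the steady state and 114 after GM-CSF, a ratio of 29.9 (23.0 to 39.6). Gfra2 was at 0.869 and 34.0 CPM, Sept3 at 0.602 and 27.3, and Slc27a3 at 0.736 and 30.8, ratios of 39.1, 45.3 and 41.9. 9530059O14Rik was at 5.68 and 39.2 CPM, a ratio of 6.89 (5.52 to 8.70), and Lmo1 at 16.9 and 48.6, a ratio of 2.87 (2.51 to 3.30). The bundles were made of unlike cells: cluster 0 held 14 steady-state and 668 GM-conditioned cells, and fewer cells of a kind and less RNA per cell are mixed in these ratios.

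Cluster 3 held 88 steady-state and 512 GM-conditioned cells and could be compared by itself, a setting added after the data were seen. There 5 of the 6 genes with enough UMIs over both libraries were at least 2-fold higher after GM-CSF, against 6.30% of all genes with as many. A gene could again pass this filter through the GM-conditioned library alone, in whose cells the genes were picked, so 5 of 6 is a description only. Fgfr1 was at 50.9 and 272 CPM (ratio 5.34, 3.85 to 7.63), 9530059O14Rik at 6.88 and 75.4 (ratio 11, 4.64 to 34.0), and Sept3 at 9.63 and 59.2 (ratio 6.15, 2.93 to 15.5). Lmo1 was at 55.0 and 76.0 CPM, a ratio of 1.38 (0.987 to 1.98). Steady-state cells of this cluster had Cd209a, a C-type lectin gene, at 1109 CPM against 647, so the cells that share the cluster were not alike in all genes.

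In cluster 9 (122 and 236 cells), 3 of the 4 genes with at least 50 UMIs over both libraries were at least 2-fold higher after GM-CSF. The share over all genes with as many UMIs was 4.0%. Lmo1, Fcrls and Slc27a3 had too few, and Sept3 passed this filter through the GM-conditioned library alone, so 3 of 4 is a description only. Sept3 went from 1 UMI (0.999 CPM) to 79 UMIs (53.1 CPM), a ratio of 53.2 (9.27 to 2127). Gfra2 was at 5.99 and 29.6 CPM, a ratio of 4.94 (2.10 to 14.2), and 9530059O14Rik at 44.9 and 76.7, a ratio of 1.71 (1.20 to 2.47). In this cluster, steady-state cells thus already had the non-coding RNA and almost no Sept3. Steady-state class IV held only 23 CD115- cells, with 11 UMIs of 9530059O14Rik (61.2 CPM) and 6 each of Fgfr1 and Lmo1 (33.4 CPM). The tag limits that define the classes differed between the libraries, such as 21 CD301b tag counts for IV in the GM-conditioned and 5 in the steady-state library.

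P-I cells, which both libraries held, separated Lmo1 from Fgfr1. Lmo1 was at 22.0 CPM in steady-state P-I (24 UMIs) and 24.4 in GM-conditioned P-I (34 UMIs), a ratio of 1.11 (0.639 to 1.96), and in CD115- class I the ratio was 1.15 (0.929 to 1.42). Fgfr1 had 1 UMI in 139 steady-state P-I cells and 26 in 187 GM-conditioned ones, a ratio of 20.4 (3.35 to 835), and in class I the levels were 1.60 and 21.8 CPM, a ratio of 13.6 (8.01 to 24.8). Slc27a3 had no UMI in steady-state P-I and 13 in GM-conditioned P-I, at least 3.40-fold higher. The P-I cells of the libraries lay in different clusters: clusters 1, 7 and 8 held 5.04%, 1.44% and 0.719% of them in the steady state and 15%, 16% and 11.8% after GM-CSF, and clusters 5 and 6 held 21.6% and 18.7% against 8.02% and 4.28%. Class I differed likewise, with 1.58% and 22.4% in cluster 7. Over all cells of cluster 2, which both libraries held, Fgfr1 had no UMI in the steady state and 15 after GM-CSF, at least 5.49-fold higher. Beside these values, P-I held Mgl2 at 25.1 CPM after GM-CSF against no UMI in the steady state, so cells of the gate also differed in a gene of the P-IV tag.

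**Figure D4:**
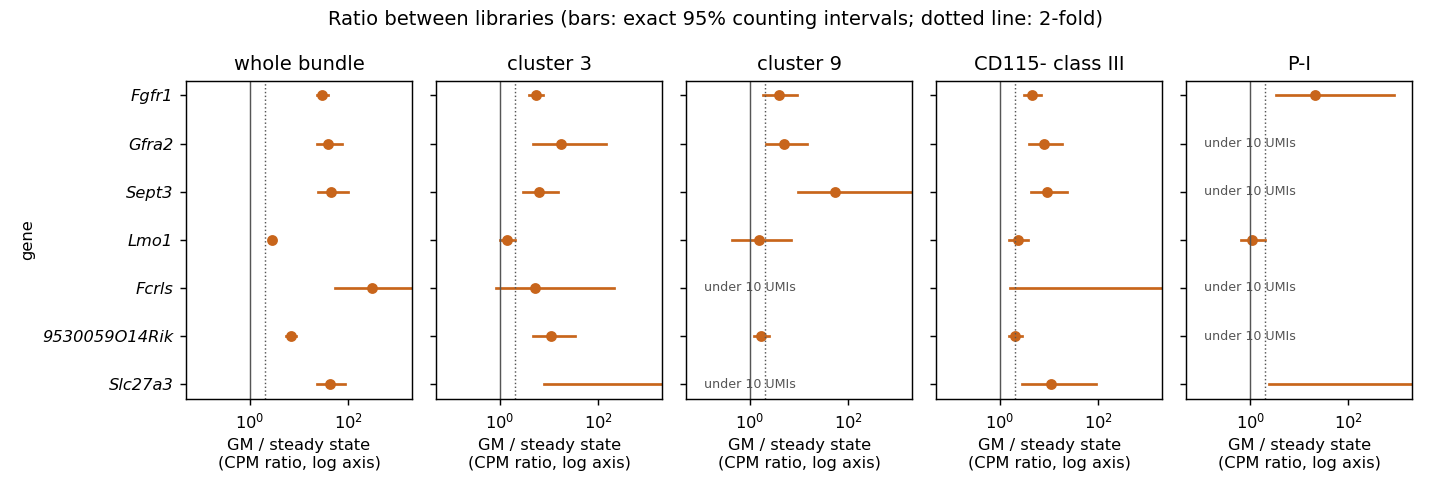
Ratio of CPM in the GM-conditioned over the steady-state library (log axis, exact 95% counting intervals) for each gene in the whole bundle, clusters 3 and 9, CD115- class III and P-I. Bars that reach the right edge go beyond it, and bars without a point had no steady-state UMI. Lmo1 lay near 1 in P-I (1.11) and cluster 3 (1.38) and Fgfr1 above 3 in all 5 panels.

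The cell cycle phase that the authors deposited for each cell went with some of the genes in P-IV and not with others. Fgfr1 was at 294 CPM in the 216 G1 cells, 187 in the 54 S cells and 119 in the 43 G2M cells. The ratio of G1 to cycling cells was 1.93 (1.57 to 2.38) for Fgfr1 and 2.0 (1.34 to 3.08) for 9530059O14Rik. It was 0.860 (0.627 to 1.19) for Gfra2 and 0.984 (0.749 to 1.30) for Lmo1. In CD115- class IV the ratio was 1.53 (1.36 to 1.72) for Fgfr1 and 1.45 (1.18 to 1.79) for 9530059O14Rik, and 0.739 (0.615 to 0.891) for Gfra2 and 0.801 (0.678 to 0.949) for Lmo1. Fcrls was at 73.5 CPM in G1 and 40.5 in G2M cells of P-IV, but at 39.5 and 53.1 in class IV. From G1 to G2M, Sept3 went from 70.8 to 32.9 CPM in P-IV and from 54.8 to 28.2 in class IV. Slc27a3 went from 81.0 to 53.1 and from 65.5 to 37.0. Median UMIs per cell were 6657.5 in G1 and 9603 in G2M cells of P-IV, and 6673.5 and 10550.5 in class IV. Mgl2 had a ratio of 1.66 in P-IV, so a lower level in cycling cells was not particular to Fgfr1. P-IV cells with and without a Cd209a UMI differed in the 7 genes by ratios of 1.22 (Fcrls, 0.864 to 1.75) to 1.82 (Slc27a3, 1.29 to 2.60), with median UMI counts of 7316 and 6529.

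Cells with UMIs of several of the genes were common in P-IV. The genes were picked as high there, so more of them per cell than in the other P subsets was set in advance. Of 313 P-IV cells, 276 (88.2%) had a UMI of at least 1 of the 7 genes, 147 (47.0%) of at least 3 and 2 of all 7. In CD115- class IV 465 of 1073 cells (43.3%) had at least 3, against 71 of 847 (8.38%) in class III, here with its progenitor DCs. The count was 8 of 126 (6.35%) in P-III, 5 of 187 (2.67%) in P-I and 1 of 893 (0.112%) in GM-conditioned neutrophils. In the steady-state bundle 0 of 2135 cells had 3 or more, which allows a share of up to 0.141%. With each cell thinned to 1000 UMIs, at least 1 of the genes was found in 42.8% of P-IV, 42.7% of class IV, 16.9% of class III, 6.56% of P-I and 2.17% of steady-state bundle cells.

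For a pair of genes the number of cells with both was set beside the number that the product of their shares gives. Over the 21 pairs the median of observed over product was 1.32 in P-IV and 1.24 in class IV, with 12 and 16 pairs whose interval lay above 1 and none below. Fcrls and Slc27a3 had the highest value: 43 P-IV cells had both against 22.8 by the product (1.89, 1.39 to 2.48), and 75 class IV cells against 38.6 (1.94, 1.54 to 2.41). Lmo1 and 9530059O14Rik had the lowest, with 53 P-IV cells against 46.5 (1.14, 0.872 to 1.45) and 148 class IV cells against 141 (1.05, 0.898 to 1.22). Cells with more UMIs have more of any gene, and the cells were not of one cluster: within cluster 0 the median over pairs was 1.12 in both P-IV and class IV, with 2 and 3 pairs above 1 by their interval. Fcrls and Slc27a3 were the highest pair there, at 1.71 (1.21 to 2.31) and 1.4 (1.06 to 1.81). At 1000 UMIs per cell, where few cells had both of a pair, 1 of the 21 pairs in P-IV and 4 in class IV had an interval above 1. In class IV cells of cluster 0 at 1000 UMIs, 0 pairs did, and the highest was Sept3 with 9530059O14Rik.

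**Figure D5:**
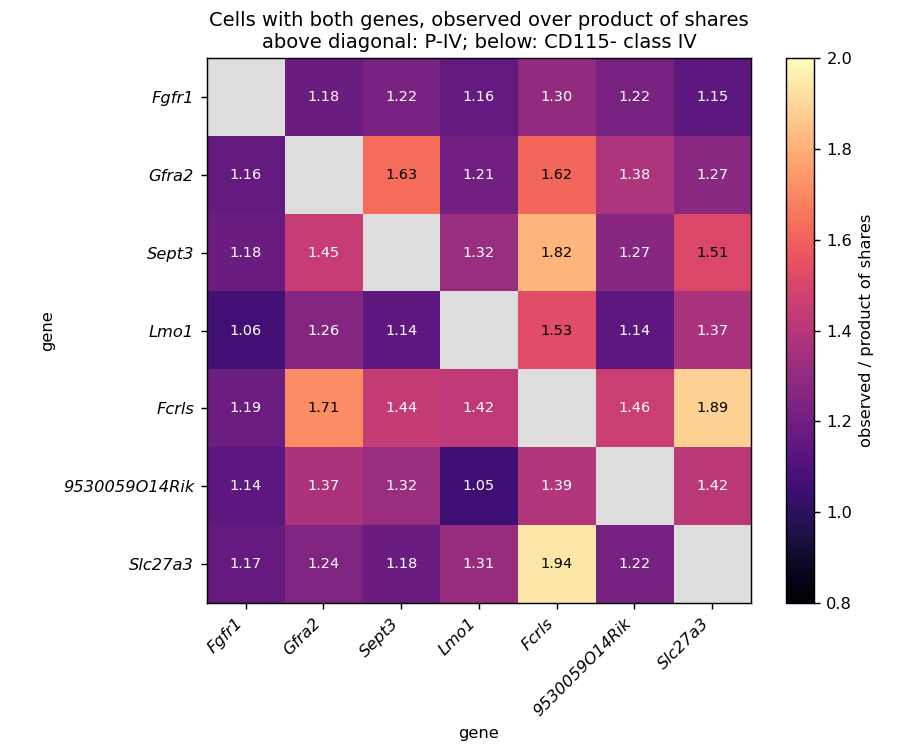
Number of cells with a UMI of both genes of a pair divided by the number from the product of their shares, in P-IV (313 cells, above the diagonal) and CD115- class IV (1073 cells, below). All values were above 1, from 1.05 for Lmo1 and 9530059O14Rik to 1.94 for Fcrls and Slc27a3, both in class IV.

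Many genes of the same families and pathways had too few UMIs for the 2-fold criterion. Of 29 FGF receptors and ligands, Fgfr1 was the sole gene with at least 50 UMIs in P-IV or in class IV, so its family could not be compared. Of 23 genes of FGF receptor signalling and feedback, 4 were tested in P-IV and 9 in class IV, and 0 were at least 2-fold higher in IV. At least 2-fold lower than in the highest other group were 0 in P-IV and 3 in class IV. The feedback phosphatase gene Dusp6 was at 64.5 CPM in P-I, 28.4 in P-III and 17.3 in P-IV. Of 12 genes of the GDNF family, 2 were tested in P-IV and 2 in class IV, and Gfra2 met the criterion in both. In each, 1 tested gene was at least 2-fold lower. Ret had 2.22 CPM in P-IV (5 UMIs) and Gfra1, the co-receptor paralogue, had no UMI there. Of 13 septins, 6 were tested in P-IV and Sept3 alone met the criterion, while in class IV 7 were tested and 0 met it. Sept7 was at 136 CPM in P-I and 177 in P-IV, and Sept9 at 194 and 286.

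Of 18 LIM-only proteins and partners, 11 were tested in P-IV and 12 in class IV, and Lmo1 alone met the criterion in both. At least 2-fold lower were 2 in P-IV and 1 in class IV. Lmo2 was at 141 CPM in P-I and 177 in P-IV, Lmo4 at 131 and 215, and the LIM-binding cofactor Ldb1 at 30.8 and 33.8. Of 6 Fc receptor-like genes, Fcrls itself was the only one with enough UMIs in P-IV or class IV. Of 13 SLC27 transporters and long-chain acyl-CoA synthetases, 4 were tested in P-IV and 7 in class IV, and Slc27a3 alone met the criterion. In each, 1 tested gene was at least 2-fold lower. Slc27a1 was at 9.32 CPM in P-I and 8.90 in P-IV, and Acsl1 at 39.4 and 31.6. Between the libraries Slc27a1 (1.81 and 7.38 CPM), Fcrla (1.20 and 3.10) and Fgf13 (no UMI and 1.88) also passed 2-fold.

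Across 40 groups of cells (bundle cluster or other cell type, by library, with at least 100000 UMIs), the pattern of each gene was set beside 11435 others by Pearson's r of log2(CPM + 5), as a description in which groups share libraries and depth. The closest genes to Fgfr1 were Sept3 (r 0.902), Adra2a (0.880) and Mras (0.864). Those closest to Gfra2 were Sept3 (0.865), 9530059O14Rik (0.835) and Fgfr1 (0.831), and to Sept3 were Fgfr1, Gfra2 and Cetn4 (0.831). Fcrls was closest to Omp (0.894), Hr (0.863) and Gm8113 (0.856), and Slc27a3 to Rab3il1 (0.905), Sectm1a (0.891) and Mras (0.890). 9530059O14Rik was closest to Spire1 (0.900), Anpep (0.893) and Ehf (0.862). Lmo1 stood farthest from the others, with Lxn (0.798), Smim5 (0.791) and Acvrl1 (0.789) as its closest and an r of 0.302 with 9530059O14Rik, its lowest with any of the 7.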

How the data were processed

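RNA and antibody tags of the same cells were measured with the 10x Genomics 3′ v3 kit. The authors deposited raw UMI counts per gene and per tag, with the submitters' processing notes naming Cell Ranger 3.0.2, Seurat 3.6.0 and mm10 (tags were counted with CITE-seq-Count, per the methods), and a second deposited table with other per-cell labels (library, cell type, cluster, gate, cell cycle phase). The antibody gates were made by the authors on scaled tag values. Here UMIs were summed over cells of a group, divided by the group's total and given as counts per 1000000 (CPM). A gene counted as higher with at least 50 UMIs in the top group and 2-fold the CPM of every other group, 0.5 counts being added to each sum. Between the libraries the 50 UMIs were counted over both. Intervals for sums are exact Poisson, for ratios exact conditional binomial and for shares Clopper-Pearson, at 95%, with a floor of 3 counts for a count of 0.

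CD115- cells carry 1 deposited gate label, against the plan, and were split by the extreme tag counts of the deposited subsets of their library, which differ between libraries. Doublets were not removed; Scrublet, through scanpy 1.11.5, marked 2.73% of GM-conditioned and 2.92% of steady-state cells, used only as an alternative. Thinning drew 1000 UMIs per cell and left out 578 and 38 shallower cells. All 7 listed genes are described, with family lists given as counts; the genes and lists were chosen with earlier results of these data known. The scripts were tested on simulated counts with known folds.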

Additional observations from a re-analysis of the deposited data

How the results depend on the processing

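Each count of genes 2-fold higher was recomputed under the alternatives. In P-IV, 7 of the 7 genes and 31 genes in all passed. Adding 1 count instead of 0.5, which raises the 8-cell P-II, left 4 and 11. Thinning to 1000 UMIs left 1 and 6, with only 1 of the 7 reaching 50 UMIs. Means of log-normalized values left 5 and 19, with Sept3 at 1.65-fold and Fcrls at 1.62-fold. Leaving out P-II gave 53 genes and pooling the libraries 57. In CD115- class IV (5 of the 7 and 85 genes), thinning left 31 genes and 5 of the 7, with Sept3 gained at 2.03-fold and Fcrls lost at 1.75-fold, adding 1 count 4 of the 7 (Fcrls at just under 2-fold), the lower CD115 tags 3 of the 7, and leaving out progenitor DCs 56 genes. Between the libraries (7 and 941), thinning gave 551 genes, cluster 3 alone 444, and cluster 9 alone 3 of the 7 and 228. The median over the 7 genes of the share of class IV cells with a UMI was 31.5% with all UMIs and 7.15% at 1000 UMIs per cell. Of the 73 values of single genes, 63 stayed within their counting interval and 10 moved, each of these by thinning, and 0 changed direction; leaving out called doublets, or the cell with the most UMIs, moved none. No paired analysis was possible because each condition has 1 library. P-II and steady-state class IV held too few cells to bound a low level.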
